A study of Mus musculus with 16 samples.

Results

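The TREM receptors and the membrane adaptors that carry their signals form a small family of myeloid genes, and 5 of its members were followed here: the receptor genes Trem2, Trem1 and Treml2 and the adaptor genes Tyrobp (DAP12) and Hcst (DAP10). They were taken by gene symbol from the 55385 genes listed in the count table. All 5 were listed and all 5 passed the filter on low counts that left 14513 genes for testing. RNA had been sequenced from CD11b+ cells that were held on magnetic beads. The cells came from the brains of mice aged 20 weeks, after the meninges and choroid plexus were removed. There were 4 libraries of each of 4 genotypes. WT mice were Card9+/+ and without transgenes, and Card9-/- mice carried a germline deletion of Card9, which encodes an adaptor of ITAM receptor signaling. 5xFAD mice were Card9+/+ and carried human transgenes with familial Alzheimer's disease mutations, which are driven by a neuronal promoter and lead to Aβ plaques. Card9-/-5xFAD mice carried the deletion and the transgenes. The deletion was present in every cell type, so a difference with it need not arise in the sorted cells. CD11b marks other myeloid cells besides microglia, and in bulk RNA fewer cells of a type cannot be told apart from less RNA per cell. The labels number the libraries of a genotype as replicates and do not tie each to an animal, so p-values measure the spread between these libraries.

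TREM2 is a surface receptor of microglia that binds lipids, lipoproteins and Aβ. Its short intracellular tail has no signaling motif of its own, and it passes signals through TYROBP, whose ITAM recruits the kinase SYK. HCST is a related adaptor that carries a PI3 kinase binding motif in place of an ITAM and can join the same receptors. TREM1 also pairs with TYROBP and is known as an amplifier of inflammation in neutrophils and monocytes. The protein of Treml2 belongs to the same receptor family but does not rely on TYROBP in the way TREM1 and TREM2 do. In Aβ models, TREM2 is needed for microglia to reach the second stage of the disease-associated microglia (DAM) program.

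The receptor genes lie together on chromosome 17 and the adaptor genes side by side on chromosome 7. In GRCm38, the assembly that mm10 holds, with GENCODE M21 annotation, Trem1 spans chr17:48232768-48246924, Treml2 spans chr17:48299498-48312533 and Trem2 spans chr17:48346401-48354147, all on the plus strand. Trem3 and Treml4 lie between Trem1 and Treml2, B430306N03Rik lies between Treml2 and Trem2, and Treml1 follows Trem2. A processed pseudogene on the other strand lies within Trem1 and shares 0 bp of exon with it. Tyrobp (chr7:30413760-30417585, plus strand) and Hcst (chr7:30417712-30419854, minus strand) face each other end to end with 126 bp between them. The counts are per gene and the strand setting of the counting is not given in the sources used here, so reads that run past the end of either adaptor gene could not be checked.

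Sequence upstream of the start was matched in RefSeq for 3 of the 5 genes, and these stretches are shown because they are the regulatory ends of a receptor that was higher with the transgenes, a receptor that was lower in the average over both transgene comparisons, and an adaptor. No entry was matched for Tyrobp and Treml2. The 250 bases before the start are printed 5′ to 3′ on the strand of the gene, from GRCm38.p6. The start is that of RefSeq, which for Trem1 lies upstream of the GENCODE start given above and for Trem2 and Hcst is the same. Capitals mark matches, on either strand, to GAGGAA (a core of sites for the myeloid factor PU.1) or to TGANTCA. The latter is a loosened form of the AP-1 site, in which N was any base.
Trem2, chr17:48346151-48346400, plus strand: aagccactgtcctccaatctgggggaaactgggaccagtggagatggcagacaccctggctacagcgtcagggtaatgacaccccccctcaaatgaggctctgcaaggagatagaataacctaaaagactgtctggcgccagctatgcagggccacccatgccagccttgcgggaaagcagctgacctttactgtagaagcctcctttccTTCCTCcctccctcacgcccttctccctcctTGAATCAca
Trem1, chr17:48232489-48232738, plus strand: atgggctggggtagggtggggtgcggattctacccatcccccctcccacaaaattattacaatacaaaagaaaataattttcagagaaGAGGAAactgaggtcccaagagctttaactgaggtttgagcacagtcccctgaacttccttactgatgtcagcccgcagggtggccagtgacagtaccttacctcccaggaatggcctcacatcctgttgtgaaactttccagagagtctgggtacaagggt
Hcst, chr7:30419855-30420104, minus strand: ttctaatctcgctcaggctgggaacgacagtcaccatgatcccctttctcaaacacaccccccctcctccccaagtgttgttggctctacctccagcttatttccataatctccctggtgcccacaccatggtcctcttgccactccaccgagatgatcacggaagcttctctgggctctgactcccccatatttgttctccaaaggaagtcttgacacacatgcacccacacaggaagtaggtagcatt
The Trem2 stretch held 1 GAGGAA, on the other strand and beginning 40 bases before the start. It also held 1 TGANTCA, with A at N, beginning 9 bases before the start. The Trem1 stretch held 1 GAGGAA, 162 bases before the start, and the Hcst stretch held neither. GAGGAA occurred in 23.3% and TGANTCA in 6.75% of 32851 promoters of the same length. CACGTG (an E-box, 6.02% of promoters) and TATAAA (12.4%) were searched on both strands as well and matched in none of the 3. A match is a description of letters and not of binding.

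Library totals ran from 2970148 to 19333325 counts, and levels are given as CPM, the count of a gene scaled to the size of its library after TMM normalization. Card9 itself was counted in the libraries of all 4 genotypes: 13.6 to 51.3 CPM in WT, 16.7 to 34.8 CPM in libraries labelled Card9-/-, 15.6 to 33.5 CPM in 5xFAD and 9.73 to 33.7 CPM in libraries labelled Card9-/-5xFAD. These ranges overlapped. Reads are summed over a gene and do not tell its exons apart, so every direction of a Card9 difference rests on the labels. Microglia markers were abundant, with P2ry12 between 1764 and 6306 CPM in the 16 libraries, and 0 of 9 passed the test in any comparison. The library of each genotype with the highest surrogate variable score (WT replicate 1, Card9-/- replicate 4, 5xFAD replicate 1 and Card9-/-5xFAD replicate 4), computed without the 5 genes, stood apart: 4.21% to 6.17% of its counts fell on ribosomal protein genes, against 0.936% to 3.33% in the other 12. The neutrophil markers also summed highest in these 4 libraries within their genotypes (2340 to 6491 CPM). The same held for markers of monocytes (218 to 401 CPM) and of border-associated macrophages (847 to 1940 CPM). The microglia markers summed lowest there within each genotype (13168 to 15573 CPM), although Card9-/- replicate 2 was close at 15754 CPM. Results that rest on these 4 libraries are given below with and without them.

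Levels of different genes were compared as CPM per kb, CPM divided by the combined length of the annotated exons of a gene. By mean, Tyrobp was the highest of the 5 in every genotype, and the lowest was Treml2 in WT and Card9-/- and Trem1 in 5xFAD and Card9-/-5xFAD. In WT this level was 3609 ± 2201 CPM per kb (SD, n = 4) for Tyrobp, 329 ± 40.1 for Trem2, 136 ± 138 for Hcst, 4.49 ± 1.82 for Trem1 and 1.79 ± 0.195 for Treml2. On this scale in WT, the lowest Tyrobp library (2228) was above the highest Trem2 library (362). Likewise the lowest Trem1 library (2.75) was above the highest Treml2 library (2.01). The combined length pools all annotated transcripts (4 for Trem2, 3 each for Tyrobp and Hcst), so gaps between genes depend on it. Not divided by length, the counts of Trem2 in WT were 0.353 to 1.17 times those of Tyrobp (median 0.885). The ranges of Trem2 and Hcst overlapped in WT, since Hcst ran from 51.9 to 342 CPM per kb. In 5xFAD, Treml2 (2.88 to 6.45) and Trem1 (1.01 to 4.10) overlapped, and the mean of Treml2 was the higher.

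**Figure D1:**
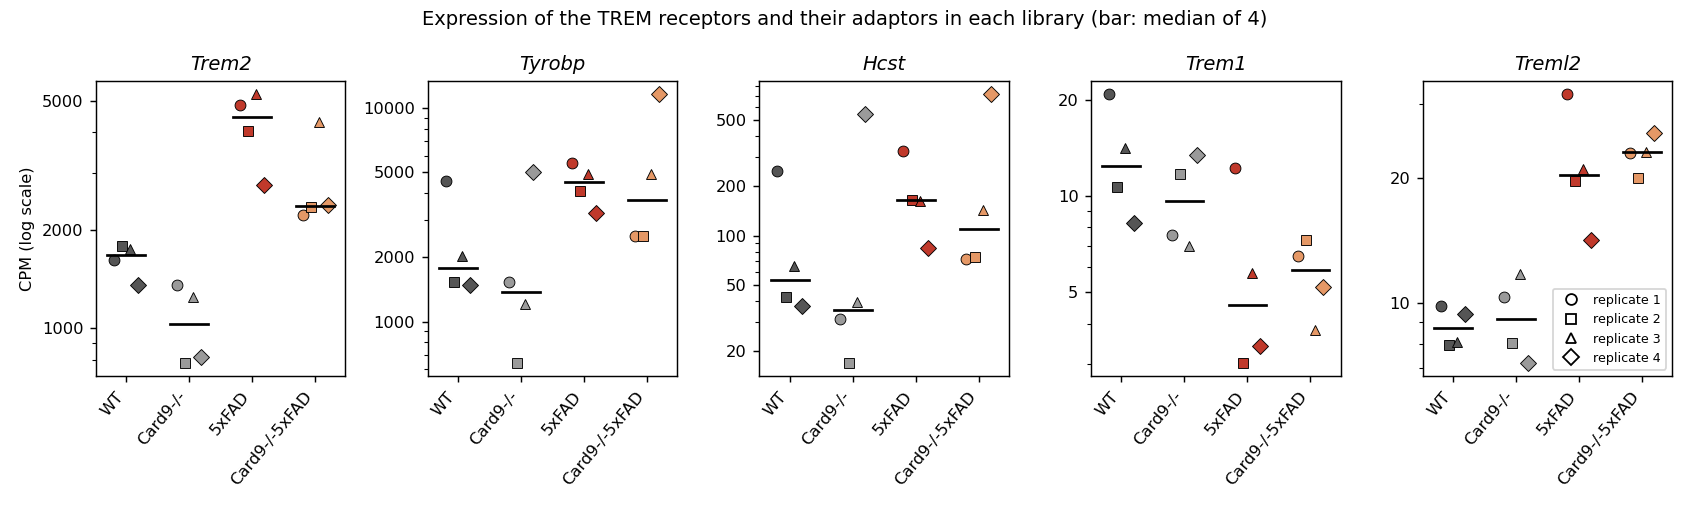
CPM of each gene (log scale) in the 16 libraries, with 1 point per library, shapes for replicate numbers and a bar at the median of each genotype. Trem2 and Treml2 do not overlap between libraries with and without the transgenes of the same Card9 genotype, whereas Tyrobp and Hcst have 1 WT and 1 Card9-/- library far above the others.

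Trem2, the lipid-sensing receptor of microglia, was higher with the transgenes in both Card9 genotypes. It was at 1618, 1792, 1749 and 1352 CPM in WT replicates 1 to 4 and at 4869, 4048, 5229 and 2756 CPM in 5xFAD. It was at 1354, 782, 1242 and 817 CPM in Card9-/- and at 2223, 2360, 4308 and 2383 CPM in Card9-/-5xFAD. No library with the transgenes was as low as any library without them in the same Card9 genotype. The log2 fold change was 1.38 (SE 0.31, 95% confidence interval 0.72 to 2.04) in 5xFAD against WT and 1.43 (SE 0.31, interval 0.77 to 2.09) in Card9-/-5xFAD against Card9-/-, with adjusted p = 0.0340 and 0.0347 in edgeR's quasi-likelihood test with Benjamini-Hochberg adjustment. These are 2.60-fold and 2.69-fold. The threshold for adjusted p was 0.1. It was missed when WT replicate 4 (0.149) or 5xFAD replicate 3 (0.125) was left out of the first comparison. In the second it was missed without Card9-/- replicate 2 (0.153) or Card9-/-5xFAD replicate 3 (0.118). The log2 fold change stayed at 1.15 or above in each of these.

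Treml2, a receptor of the same cluster with far fewer counts (22 to 232 per library), rose by a similar factor. It was at 9.86, 7.96, 8.05 and 9.41 CPM in WT and at 31.7, 19.6, 21.0 and 14.2 CPM in 5xFAD. It was at 10.3, 8.03, 11.7 and 7.20 CPM in Card9-/- and at 22.9, 20.0, 23.1 and 25.6 CPM in Card9-/-5xFAD. Again the libraries with and without the transgenes did not overlap within either Card9 genotype. The log2 fold change was 1.29 in 5xFAD against WT (SE 0.27, adjusted p = 0.0198) and 1.29 in Card9-/-5xFAD against Card9-/- (SE 0.27, adjusted p = 0.0262; edgeR). The second of these missed the threshold without Card9-/- replicate 2 (adjusted p = 0.122).

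Trem2 and Treml2 were the only 2 of the 5 genes past the threshold, and the only 2 whose groups did not overlap, in either transgene comparison. Of all tested genes, 2.09% passed in 5xFAD against WT (1.57% higher) and 1.97% in Card9-/-5xFAD against Card9-/- (1.49% higher), while 8.04% (4.35% higher) and 7.01% (3.53% higher) had groups that did not overlap. By the combined length of annotated exons, Trem2 and Treml2 were above the median of tested genes (4946 bp and 4917 bp against 3976 bp). That length pools 4 annotated transcripts for each gene and can exceed the length of the transcripts present. Both genes also passed in both comparisons without the libraries that stood apart, where 7.85% and 16.2% of tested genes passed. With 1 surrogate variable they passed as well, where 8.62% and 12.5% of tested genes did. The same held with the replicate number as a block over all libraries (2.11% and 2.34% of tested genes), with the slope of expression on exon length as a covariate (6.32% and 5.78%) and in DESeq2 (3.24% and 4.82%). They did not pass without the filter on low counts, where adjusted p was 0.249 and 0.233 for Trem2 and 0.104 and 0.154 for Treml2 in the 2 comparisons, nor in a fit of only the Card9-/- and Card9-/-5xFAD libraries (0.242 and 0.124).

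**Figure D2:**
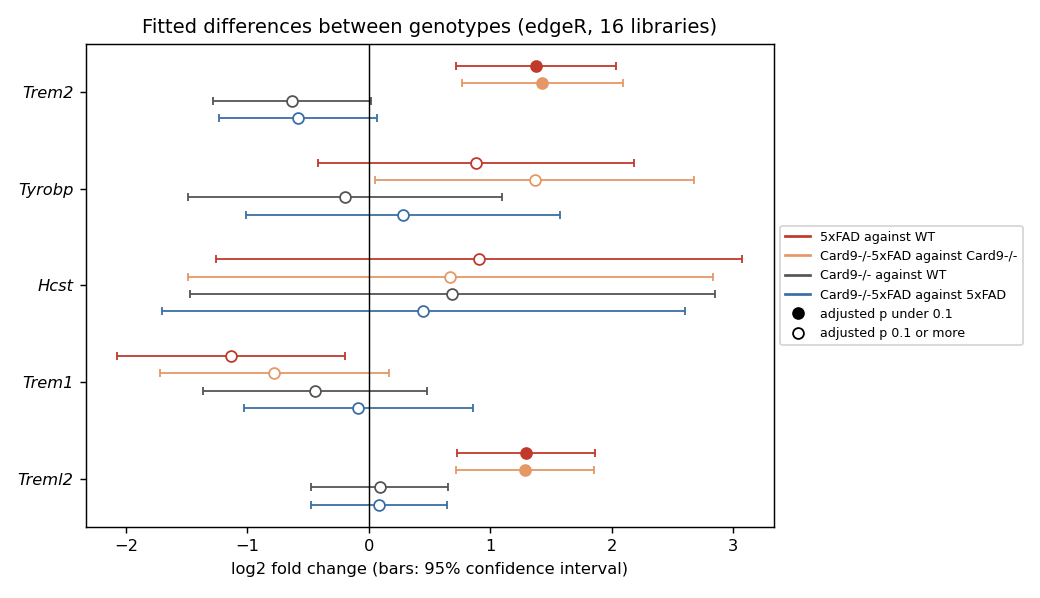
Fitted log2 fold change of each gene in 4 comparisons, with bars for the 95% confidence interval and filled points for an adjusted p under 0.1. The 4 filled points are those of Trem2 and Treml2 in the transgene comparisons, and the intervals of Hcst are the widest.

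The transgene response of Trem2 and Treml2 did not differ detectably between the Card9 genotypes. The interaction, the response in Card9-deficient mice less that in Card9+/+ mice, was 0.05 on the log2 scale for Trem2 (interval −0.87 to 0.97) and −0.01 for Treml2 (interval −0.79 to 0.78). It was 0.48 for Tyrobp (−1.34 to 2.30), −0.24 for Hcst (−3.28 to 2.80) and 0.36 for Trem1 (−0.96 to 1.67). None of the 5 passed, and 0% of tested genes passed (0 in edgeR, with 78 or 0.537% at an unadjusted p under 0.05, and 1 gene in DESeq2). The intervals are wide against the responses themselves, so a difference of moderate size was not detectable with these libraries.

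Tyrobp, the ITAM adaptor of TREM2 and TREM1, had a higher mean with the transgenes in both Card9 genotypes but varied widely within a genotype. It was at 4577, 1530, 2036 and 1486 CPM in WT and at 5525, 4076, 4923 and 3236 CPM in 5xFAD. It was at 1535, 640, 1214 and 5005 CPM in Card9-/- and at 2521, 2513, 4937 and 11616 CPM in Card9-/-5xFAD. The groups overlapped because WT replicate 1 and Card9-/- replicate 4, which stood apart, were at the level of libraries with the transgenes. The log2 fold change was 0.88 in 5xFAD against WT (SE 0.61, adjusted p = 0.641) and 1.36 in Card9-/-5xFAD against Card9-/- (SE 0.62, adjusted p = 0.385; edgeR), past the threshold in neither. Without the 4 libraries that stood apart it was 1.31 (adjusted p = 0.0547) and 1.57 (adjusted p = 0.0187).

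Hcst, the PI3 kinase adaptor, showed the same arrangement with a still wider spread. It was at 247, 42.4, 65.7 and 37.4 CPM in WT and at 324, 165, 163 and 83.5 CPM in 5xFAD. It was at 31.3, 17.0, 39.4 and 545 CPM in Card9-/- and at 72.0, 74.0, 144 and 714 CPM in Card9-/-5xFAD. Within Card9-/- the highest library was 32.1 times the lowest, against 1.73 times for Trem2 in the same libraries. The log2 fold change was 0.91 in 5xFAD against WT (SE 1.02, adjusted p = 0.800) and 0.67 in Card9-/-5xFAD against Card9-/- (SE 1.02, adjusted p = 0.840; edgeR). Without the 4 libraries it was 1.53 (adjusted p = 0.0477) and 1.74 (adjusted p = 0.0199). Leaving out Card9-/-5xFAD replicate 4 alone turned the second to −0.70 (adjusted p = 0.774), and leaving out Card9-/- replicate 4 alone took it to 3.10 (adjusted p = 0.0898).

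Both adaptor genes followed the ribosomal protein share of their library. They are among the shortest genes tested, with 667 bp of exon for Tyrobp and 722 bp for Hcst, and 4.94% and 5.43% of tested genes with a known length were shorter. The genes whose log2 CPM followed Tyrobp most closely over the 16 libraries included Rps14, Rpl32, Rps18 and Rpl21.ps15 (spelled as in the table; Pearson r 0.986 to 0.993), which are ribosomal protein genes or pseudogenes. Those closest to Hcst were Tomm7, Cops9, Uqcrh, Atp5mpl and Cox7b (r 0.993 to 0.994), mostly of mitochondrial proteins. Tyrobp and Hcst followed each other at r = 0.951, and Trem2 followed Tyrobp at r = 0.596. These correlations describe 16 libraries that share depth and composition as well as genotype.

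**Figure D3:**
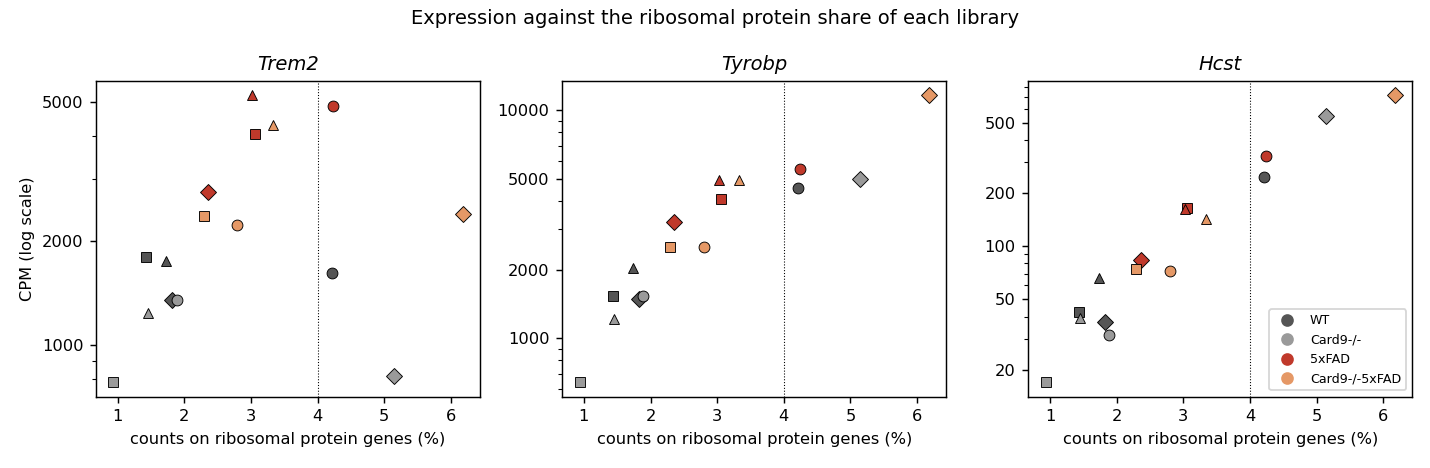
CPM (log scale) of Trem2, Tyrobp and Hcst against the percent of counts on ribosomal protein genes in each library, coloured by genotype, with a dotted line at 4%. Tyrobp and Hcst climb along the axis through all 4 genotypes, while Trem2 in the 4 libraries right of the line lies within the range of its own genotype.

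The ribosomal protein share moved with the transgenes too. In the 12 libraries that did not stand apart it was 2.29% to 3.33% in the 6 with the transgenes and 0.936% to 1.89% in the 6 without. Its part in the adaptor results was not tested directly, and the fits below give the values with a related covariate.

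Libraries with the same replicate number deviated together between WT and 5xFAD (r 0.27 to 0.71) and between Card9-/- and Card9-/-5xFAD (0.13 to 0.73). The highest were those of the libraries that stood apart. Over all other genotypes, 5 of 16 libraries correlated best with their own number. Each number was also treated as a pair within its Card9 genotype, a choice made after the data were seen. The pairs were picked from these same data, so adjusted p-values of the paired fits may be too low. Tyrobp was higher with the transgenes in 8 of 8 pairs, by 1.21 to 4.07 times. Hcst was higher in 8 of 8 pairs, by 1.31 to 4.37 times. Trem2 and Treml2 were higher in 8 of 8 as well, and Trem1 was lower in 8 of 8. Of all tested genes, 9.96% were higher in all 8 pairs and 9.56% were lower, 19.5% in all. With the pairs as blocks in edgeR, all 5 genes passed in both comparisons, where 16% and 20.4% of tested genes did. In 5xFAD against WT the blocked log2 fold change was 1.02 (adjusted p = 0.0336) for Tyrobp, 1.20 (0.0253) for Hcst and −1.27 (0.0123) for Trem1. In Card9-/-5xFAD against Card9-/- it was 1.48 (0.00452) for Tyrobp, 1.40 (0.00998) for Hcst and −0.74 (0.0863) for Trem1.

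The ribosomal protein share was also higher with the transgenes in 8 of 8 pairs, by 0.0247 to 1.88 percentage points, and the slope of expression on exon length was lower in 8 of 8. With that slope added to the paired fit, only Trem2 and Treml2 passed, where 2.69% and 2.79% of tested genes did. Trem2 was then at 1.06 (adjusted p = 0.0911) and 1.12 (0.0878) in the 2 comparisons, and Treml2 at 1.38 (0.0490) and 1.44 (0.0594). Tyrobp was at 0.47 (0.514) and 0.90 (0.183), Hcst at 0.55 (0.473) and 0.70 (0.313), and Trem1 at −1.13 (0.189) and −0.59 (0.496). Tyrobp, Hcst and Trem1 thus passed with the pairs alone and missed the threshold with the slope beside them, and Trem2 and Treml2 passed in both of these paired fits.

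**Figure D4:**
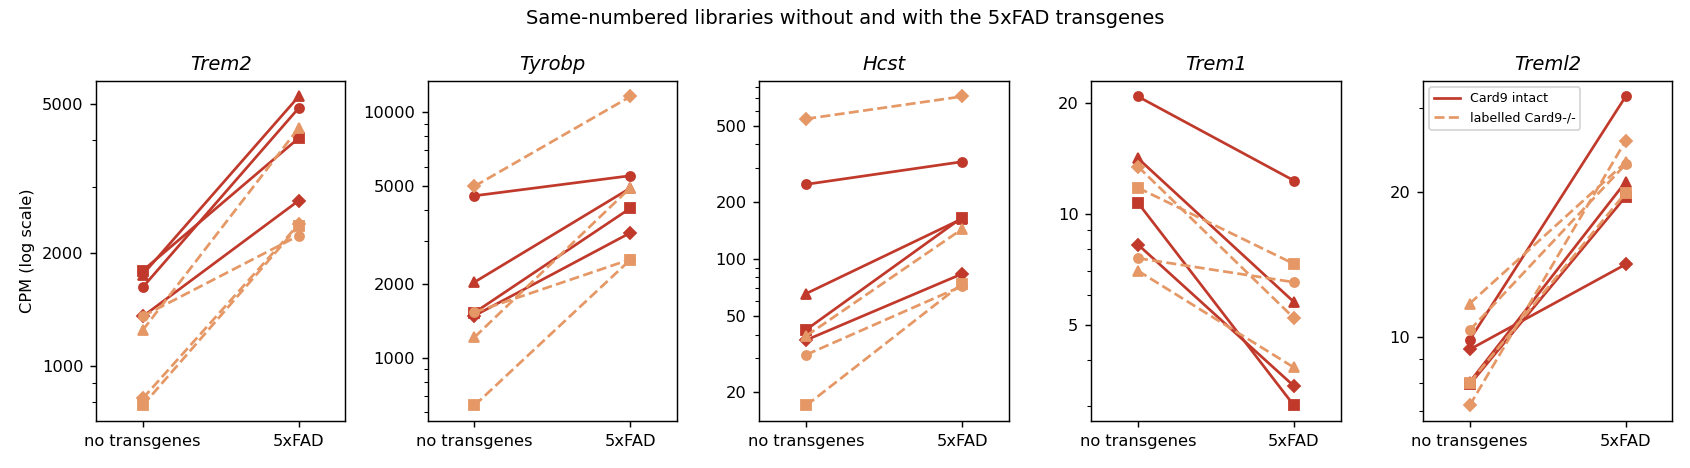
CPM (log scale) of each gene in same-numbered libraries without and with the 5xFAD transgenes, joined by a line for each of 8 pairs, solid for Card9+/+ and dashed for libraries labelled Card9-/-. The lines of 4 genes go up in 8 of 8 pairs and those of Trem1 go down in 8 of 8. Of all tested genes, 9.96% were higher and 9.56% lower in all 8 pairs.

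Trem1, the amplifying receptor of neutrophils and monocytes, was the member with lower values in the presence of the transgenes. It was at 20.8, 10.7, 14.1 and 8.24 CPM in WT and at 12.3, 3.02, 5.76 and 3.40 CPM in 5xFAD. It was at 7.57, 11.7, 6.99 and 13.4 CPM in Card9-/- and at 6.51, 7.30, 3.82 and 5.21 CPM in Card9-/-5xFAD. The groups overlapped in both comparisons, through 5xFAD replicate 1 in the first and Card9-/-5xFAD replicate 2 in the second. On the log2 scale Trem1 was at −1.13 in 5xFAD against WT (SE 0.44, adjusted p = 0.332) and at −0.78 in Card9-/-5xFAD against Card9-/- (SE 0.44, adjusted p = 0.504), past the threshold in neither in edgeR. Without the 4 libraries that stood apart it was at −1.42 (adjusted p = 0.0464) and −0.55 (adjusted p = 0.333). These values rest on 13 to 284 counts per library.

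Averaged over both Card9 genotypes, Trem1 fell by 0.96 on the log2 scale (SE 0.31, adjusted p = 0.0788; edgeR), and the call was lost in 9 of the 16 fits that left out 1 library (adjusted p 0.101 to 0.164): each without WT replicate 1 or 3, Card9-/- replicate 2, 5xFAD replicate 2, 3 or 4, or Card9-/-5xFAD replicate 1, 3 or 4. Trem2 rose by 1.40 (SE 0.22, adjusted p = 0.000947) and Treml2 by 1.29 (SE 0.19, adjusted p = 0.000549). Tyrobp was at 1.12 (SE 0.44, adjusted p = 0.135) and Hcst at 0.79 (SE 0.72, adjusted p = 0.548). So 3 of the 5 passed in the average, where 11.3% of tested genes did (5.62% higher and 5.73% lower). All 5 passed in the average with 1 surrogate variable (31.5% of tested genes), without the libraries that stood apart (33.9%) and with the pairs as blocks (41.9%). The 4 genes other than Hcst passed with the replicate block over all libraries (12.9%), the length slope (24.6%) and DESeq2 (13.2%), and Trem2 and Treml2 alone with the pairs and the slope together (5.23%).

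Neutrophils and monocytes are the cells best known for TREM1, and in either transgene comparison alone 0 of 9 neutrophil markers and 0 of 6 tested monocyte markers passed in edgeR. In the average over both, 5.73% of all tested genes passed as lower. Of the 9 neutrophil markers 3 did (Ly6g, Mmp8 and Cxcr2) and none passed as higher. Of 6 tested monocyte markers 2 passed as lower, among them Ccr2. The median log2 fold change over the neutrophil markers was −0.61 in 5xFAD against WT, −0.29 in Card9-/-5xFAD against Card9-/- and −0.52 in the average, and that over all tested genes was −0.15 in each. Neutrophil markers summed to 1368 to 3854 CPM in WT, 1456 to 6491 in Card9-/-, 1012 to 2340 in 5xFAD and 736 to 6267 in Card9-/-5xFAD. Monocyte markers summed to 145 to 401, 143 to 273, 101 to 233 and 73.5 to 218 CPM in the same order. None of these markers was at 0 throughout a genotype. Of 7 markers of border-associated macrophages, 3 passed as lower in 5xFAD against WT and 1 in Card9-/-5xFAD against Card9-/-. Of all tested genes, 0.524% and 0.482% did. Mrc1 passed as lower in both (log2 fold change −1.20 and −1.28, adjusted p = 0.0369 and 0.0313; edgeR). The genes nearest to Trem1 in pattern were Acod1, Aqp9, Gm15922, Gm49417 and Il18rap (r 0.817 to 0.843), of which Acod1 encodes the enzyme that makes itaconate. The part of these other cells in the Trem1 values was not tested.

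Without the transgenes, and with them, Card9 deficiency was not accompanied by a detectable difference in any of the 5 genes. The largest differences relative to their errors were those of Trem2, at −0.63 on the log2 scale in Card9-/- against WT (interval −1.28 to 0.02, adjusted p = 0.970) and −0.58 in Card9-/-5xFAD against 5xFAD (interval −1.23 to 0.07, adjusted p = 0.993; edgeR). The Trem2 ranges touched in the first, where the highest Card9-/- library was at 1354 CPM and the lowest WT library at 1352 CPM. For Treml2 the same comparisons gave 0.09 (interval −0.48 to 0.65) and 0.08 (interval −0.48 to 0.64). For Tyrobp they gave −0.20 and 0.28, for Hcst 0.68 and 0.45, and for Trem1 −0.44 and −0.09. In both comparisons 0% of tested genes passed (0 in edgeR, with 597 or 4.11% and 366 or 2.52% at an unadjusted p under 0.05, and 5 and 2 in DESeq2), and 2.66% and 1.89% had groups that did not overlap.

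None of the tested relatives of the receptor genes on chromosome 17 passed beside them. Of the listed relatives, Trem3, Treml4 and Treml1 were tested, and 0 of 3 passed in any comparison. Trem3 had a log2 fold change of −0.59 in 5xFAD against WT and −0.50 in Card9-/-5xFAD against Card9-/-, Treml4 of −1.22 and −0.49, and Treml1 of 0.41 and 0.24 (adjusted p 0.448 to 0.905). Trem3 was at 9.95 to 18.3 CPM in WT and 5.76 to 7.11 CPM in Card9-/-, ranges that did not overlap, with a log2 fold change of −1.23 (adjusted p = 0.970; edgeR). This comparison of Trem3 was singled out after its values were seen.

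The ligands of TREM2 that passed were Apoe and Lgals3. Apoe, which encodes apolipoprotein E, was at 2444 to 4361 CPM in WT, 10872 to 13481 CPM in 5xFAD, 2218 to 4695 CPM in Card9-/- and 4878 to 12519 CPM in Card9-/-5xFAD. Its log2 fold change was 1.63 (SE 0.34, adjusted p = 0.0187) and 1.44 (SE 0.33, adjusted p = 0.0480) with the transgenes. Lgals3, which encodes galectin-3, had log2 fold changes of 1.47 (adjusted p = 0.0222) and 1.19 (adjusted p = 0.0811). These were 2 of 8 tested ligands and sheddases, with none passing as lower, where 1.57% and 1.49% of all tested genes passed as higher. The median over the 8 was 0.33 and −0.03 against −0.15 and −0.15 over all tested genes. Adam10 and Adam17, which shed TREM2 from the surface, were in this list and did not pass.

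Downstream of the adaptors, the shares of genes that passed are to be read against the 2.09% and 1.97% of all tested genes in the 2 comparisons. Of 22 tested kinases and effectors of ITAM signaling, 1 passed in 5xFAD against WT, Vav3, a guanine nucleotide exchange factor, at 4.93 to 11.6 CPM in WT and 1.08 to 3.27 CPM in 5xFAD (log2 fold change −1.86, SE 0.44, adjusted p = 0.0465). None passed in Card9-/-5xFAD against Card9-/-, where Vav3 was at −1.38 (adjusted p = 0.170). Of 11 inhibitors, 1 passed in 5xFAD against WT, Dok3, an adaptor that dampens ITAM signaling, at 41.5 to 73.1 CPM in WT and 14.9 to 40.5 CPM in 5xFAD (log2 fold change −1.23, SE 0.29, adjusted p = 0.0473). In the other comparison none of the inhibitors passed, and Dok3 was at −1.04 (adjusted p = 0.117). With 1 gene in a list, these counts are not set apart from the background. Syk, the kinase that binds the ITAM of TYROBP, was at −0.52 in both comparisons (adjusted p = 0.511 and 0.457). None of 11 genes of the PI3 kinase arm, of 11 other receptors that pair with TYROBP or HCST, or of 3 other tested ITAM adaptors passed in either transgene comparison. The medians of the kinases and effectors were −0.42 and −0.37, and those of the PI3 kinase arm −0.37 and −0.46.

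Genes of the DAM program, in whose second stage TREM2 acts, rose the most among the lists. Of 10 second-stage genes, 9 passed as higher in each transgene comparison, where 1.57% and 1.49% of all tested genes did. The remaining gene, Lilrb4a, had a negative log2 fold change in both and did not pass. Its annotated exons share 1846 bp on the same strand with those of another protein-coding gene, Gm49339. How reads in that stretch were counted could not be checked. The 4 with the lowest p in the average were Cst7, Lpl, Itgax and Clec7a. Cst7, a cystatin, went from 27.2 to 51.6 CPM in WT to 2229 to 4417 CPM in 5xFAD (log2 fold change 6.65, SE 0.40, adjusted p = 2.03e-07). Lpl, lipoprotein lipase, had log2 fold changes of 4.61 and 4.10 in the 2 comparisons, Itgax (CD11c) of 3.98 and 3.67, and Clec7a (Dectin-1, a receptor upstream of CARD9) of 3.37 and 3.31. Of 9 first-stage genes, the stage that does not need TREM2, Apoe passed as higher in both comparisons. Fth1, ferritin heavy chain, did so in Card9-/-5xFAD against Card9-/- (log2 fold change 1.35, adjusted p = 0.0763; edgeR). In the average 7 of the 9 passed as higher, where 5.62% of all tested genes did. The median over second-stage genes was 3.05 and 2.87, larger than the 1.38 and 1.43 of Trem2 itself. The lists as used here held none of the genes followed, which does not mean that Trem2 or Tyrobp lies outside the program.

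**Figure D5:**
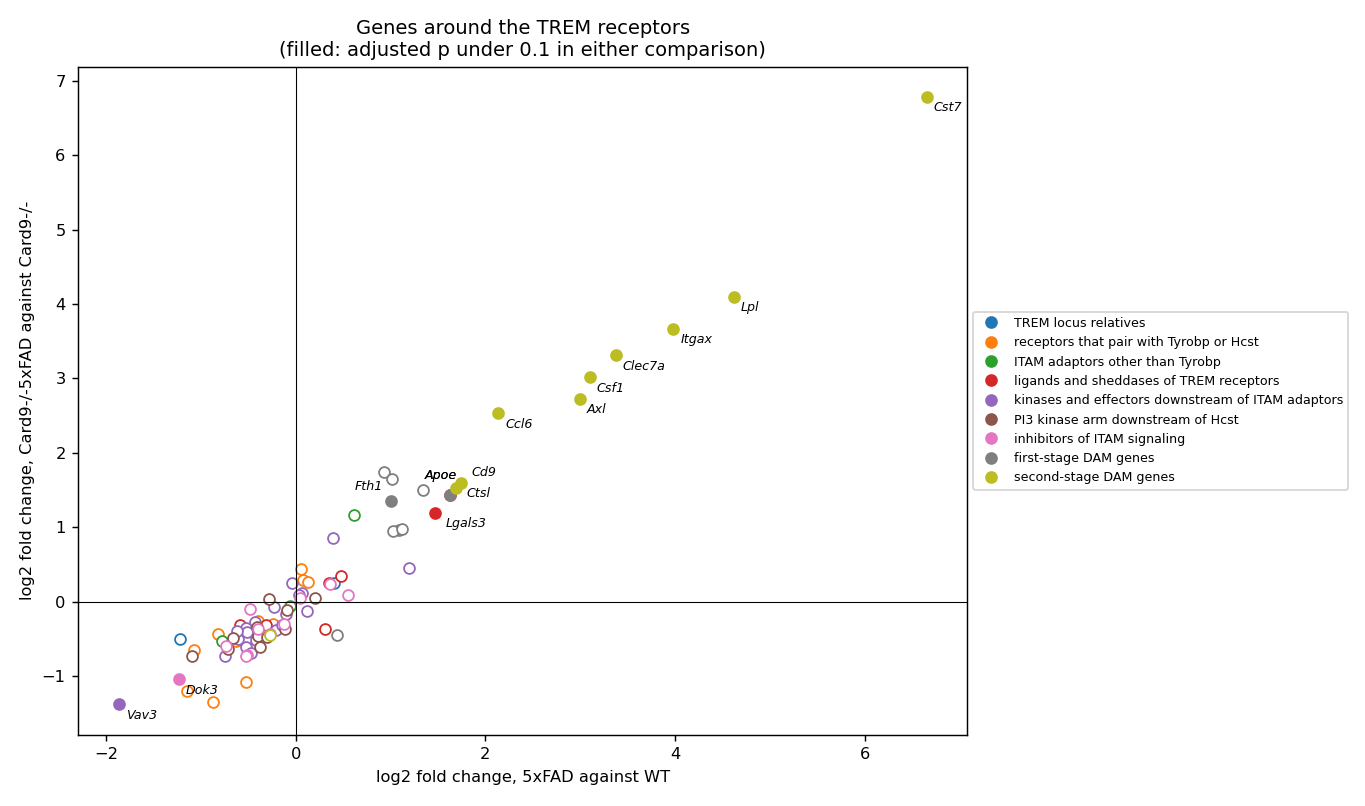
Log2 fold change in Card9-/-5xFAD against Card9-/- plotted against that in 5xFAD against WT for the tested genes of 9 lists around the TREM receptors, filled where the adjusted p was under 0.1 in either comparison. Second-stage DAM genes spread up the diagonal to Cst7 at 6.65, Apoe and Lgals3 lie between 1.19 and 1.63 on both axes, and the kinases and effectors have medians of −0.42 and −0.37.

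By pattern over the 16 libraries, the genes closest to Trem2 were Creg1, Tmem42, Syngr1, Gsto1 and Ftl2.ps (spelled as in the table; r 0.961 to 0.979). All 5 were higher in the average over the transgene comparisons, by 0.92 to 1.68 on the log2 scale. They were picked by their correlation with Trem2 over these same libraries. Their shared direction follows from that choice and is not a separate result. The genes closest to Treml2 were Yipf7, Dpys, Cenpe, Gng12 and Olfr1431 (r 0.924 to 0.943). Trem2 and Treml2 followed each other at r = 0.827, and Trem1 ran against both (r = −0.537 and −0.546).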

How the data were processed

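RNA-seq of CD11b+ brain cells gave 16 libraries. The authors aligned reads to mm10 with HISAT2, filtered them with SAMtools, counted them per gene with HTSeq and deposited read counts without normalization (versions not given in the sources used here). Libraries were grouped by the genotype in their labels. Counts were tested in edgeR 4.0.16 (R 4.3.3) by quasi-likelihood over all 16 libraries, after TMM normalization and a minimum count of 10 in filterByExpr, with Benjamini-Hochberg adjustment over 14513 genes and a threshold of 0.1. Log2 CPM used a prior count of 2. SEs are the absolute log2 fold change over the square root of its F statistic. Confidence intervals cover 95%. The study's own tests used DESeq2, here an alternative (1.42.0), beside sva 3.50.0. The fit was also run on simulated counts with known fold changes, drawn independently for each library. That run cannot speak to deviations that libraries share.

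Same-numbered libraries correlated in their deviations at 0.27 to 0.71 between WT and 5xFAD and at 0.13 to 0.73 between Card9-/- and Card9-/-5xFAD. The labels do not say what the numbers share, so the pairing comes from the data. Between Card9 genotypes the correlations ran from −0.64 to 0.49, and those comparisons were not paired. No 2 libraries of a genotype were copies (chi-square over its degrees of freedom was at least 6.28 in each of 24 within-genotype comparisons).

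The 5 genes, the lists and the tests were chosen with earlier results of these data known. From each pathway list, genes were named that passed in either transgene comparison (at most the 4 of lowest p in the average) or in a Card9 comparison, along with Card9 and the 5 genes closest in pattern to each member. Others are named as examples of a list or as chosen after their values were seen. A few genes that these rules would name are not reported here.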

Additional observations from a re-analysis of the deposited data

Results flagged for a closer look

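Of 20 groups of 4 libraries (5 genes in 4 genotypes), 4 held a library whose gap to the nearest other exceeded the critical value of Dixon's test at 95%, and chance flags about 1 in 20. Trem2 was at 4308 CPM in Card9-/-5xFAD replicate 3, against 2223 to 2383 CPM in the other 3. Hcst was at 247 CPM in WT replicate 1, at 545 CPM in Card9-/- replicate 4 and at 714 CPM in Card9-/-5xFAD replicate 4, each the highest of its genotype and each a library that stood apart by its ribosomal protein share.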

How the results depend on the processing

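Trem2 and Treml2 passed in the average of the transgene comparisons under every alternative run, the 16 fits that each left out 1 library included. Of the 5 genes, 2 passed in each transgene comparison and 3 in the average. In 5xFAD against WT the number passing was 0 without the filter on low counts, 4 with 1 surrogate variable, 5 without the 4 libraries that stood apart and 5 with the replicate block within each Card9 genotype, and 1 to 3 with 1 library left out. In Card9-/-5xFAD against Card9-/- it was 0 without the filter, 0 in a fit of only the groups compared, 4 without those 4 libraries, 5 with the block within each Card9 genotype, and 0 to 4 with 1 library left out. In the average it was 5 with 1 surrogate variable, 5 without the 4 libraries, 5 with that block, and 2 to 5 with 1 library left out. The lowest were without WT replicate 4 or 5xFAD replicate 3 in the first and without Card9-/- replicate 2 in the second. The highest were without 5xFAD replicate 1 in the first and without Card9-/- replicate 4 in the others, where Tyrobp (2.26, adjusted p = 0.0658) and Hcst passed in Card9-/-5xFAD against Card9-/-. Trem1 missed the threshold in the average with DESeq2 size factors (adjusted p = 0.101) and without the filter (0.134). The causes of these changes were not tested. Choices added after seeing the data were the length slope, leaving out the 4 libraries and both blocks within Card9 genotypes.

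Across all tested genes, 304, 286 and 1647 passed in the 2 transgene comparisons and the average. With 1 library left out the numbers were 168 to 381, 122 to 694 and 962 to 2961, lowest without WT replicate 4, Card9-/- replicate 2 and WT replicate 4 and highest without Card9-/- replicate 4. They were 1251, 1810 and 4576 with 1 surrogate variable, 917, 839 and 3568 with the length slope, 1139, 2348 and 4923 without the 4 libraries, 2322, 2966 and 6078 with the block within each Card9 genotype, and 391, 405 and 759 with that block and the slope. DESeq2 gave 565 and 812 in the 2 comparisons. Without the filter the average gave 1070 and the second comparison 185, and a fit of only the groups compared gave 96 in the second. In the Card9 comparisons and the interaction 0 of the 5 passed under any alternative. The block over all libraries, by replicate number alone, changed no call in the 2 transgene comparisons and added Tyrobp in the average, and 5 of 16 libraries correlated best with their own number. The median log2 fold change of all tested genes was −0.15 in the transgene comparisons with TMM and −0.08 with DESeq2 size factors, under which Trem2 and Treml2 stayed higher. Depth limits Trem1 and Treml2 most, with at least 13 and 22 counts per library.

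Directions turned only in values that had not passed. The interaction of Trem2 was −0.013 without the filter. That of Hcst was 0.022 with the replicate block, 0.24 with the length slope, 0.21 without the 4 libraries, 0.19 with the block within each Card9 genotype and 0.15 with that block and the slope. That of Treml2 was 0.048, 0.017, 0.047 and 0.058 under the same alternatives other than the slope alone. In Card9-/- against WT, Tyrobp was 0.11 with the slope, and Hcst was −0.46 with the block and −0.73 without the 4 libraries. In Card9-/-5xFAD against 5xFAD, with the block, 1 surrogate variable and without the 4 libraries, Tyrobp was −0.022, −0.12 and −0.30 and Hcst −0.44, −0.32 and −0.52, and Trem1 was 0.011 with the block, 0.18 with the slope and 0.56 without the 4 libraries. With 1 library left out, the interaction ran from −0.23 to 0.20 for Trem2, −0.23 to 1.37 for Tyrobp, −1.63 to 2.19 for Hcst and −0.19 to 0.24 for Treml2. In Card9-/- against WT the ranges were −1.09 to 0.32 for Tyrobp, −1.75 to 1.70 for Hcst and −0.043 to 0.19 for Treml2. In Card9-/-5xFAD against 5xFAD they were −0.42 to 0.52 for Tyrobp, −0.93 to 0.87 for Hcst, −0.42 to 0.51 for Trem1 and −0.21 to 0.32 for Treml2. Hcst in Card9-/-5xFAD against Card9-/- ran from −0.70 to 3.10.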
